A study of Mus musculus with 31 samples.

Results

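Myl1, Tnnc1, Tnnt2, Myh8, Myh6, Myh7, Myh3, Actc1, Mylpf and Tnni1 encode proteins of the sarcomere, the contractile unit of skeletal and heart muscle, and were followed through fetal mouse gonads that lacked Ctnnb1, Sox9 or both. These 10 genes of 18193 named on the arrays were chosen by their measured signal on the same arrays, as striated muscle genes higher where Ctnnb1 was deleted. Each gene was read from the probe sets that carry it as their sole symbol in the platform annotation, 13 of 45101 probe sets in all, and from these the probe set with the highest mean log2(signal + 16) over 31 arrays was taken. All 10 were among the 11777 genes above their own array's median signal on at least 3 arrays. The number of arrays on which a gene stood above that median ran from 16 for Tnnt2 to 31 for Myh8, Myh7 and Tnni1. Because Ctnnb1 loss chose the genes, their differences between gonads with and without Ctnnb1 are given below as a description, with no p-value.

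Striated muscle contracts when myosin heads of the thick filament pull on actin of the thin filament. Each myosin motor joins heavy chains with essential and regulatory light chains, and the troponin complex on actin, made of subunits C, T and I, makes contraction depend on calcium. The genes come in fast skeletal, slow skeletal, cardiac and developmental versions, and fetal skeletal muscle also uses versions named for the heart. Beta-catenin, the product of Ctnnb1, carries canonical WNT signals and is needed for ovarian differentiation, whereas SOX9 is the transcription factor that directs Sertoli cell differentiation in the testis. A fetal gonad is not built of striated muscle, although smooth-muscle-like cells surround the cords of a testis.

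The arrays measured RNA of gonads at embryonic day 14.5, and each array held 1 pair of gonads separated from the mesonephros. Every embryo carried the Sf1-cre transgene (Sf1-cre+/Tg), which acts in the somatic cells of the gonad, so germ cells and cells from outside the Sf1 lineage keep their floxed alleles intact. Controls had 1 floxed allele of each gene (Ctnnb1+/f with Sox9+/f), and were therefore not wild type. Ctnnb1KO gonads were Ctnnb1f/f with Sox9+/f, Sox9KO gonads were Ctnnb1+/f with Sox9f/f, and double knockout (DKO) gonads were Ctnnb1f/f with Sox9f/f. Each genotype was collected as XX and as XY, giving 8 groups of 4 arrays, except XY DKO with 3 (replicates 2, 3 and 4).

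Median signal per array ran from 120.6 to 168.8, and the XY DKO replicate 3 array had the lowest. Sox9 signal followed the labels in XY gonads, at 840 to 1025 in controls and 648 to 847 in Ctnnb1KO, against 7.14 to 41.7 in Sox9KO and 8.65 to 34.9 in DKO. Of the XX arrays, replicate 4 of XX Ctnnb1KO stood apart, with an Xist signal of 51.1 against 7490 to 9432 on the others, and an Eif2s3y signal at the XX level. Without that array, the log2 difference between XX Ctnnb1KO and XX control was 2.67 instead of 2.78 for Myl1, 1.42 as before for Tnnc1, 1.22 instead of 1.21 for Tnnt2 and 1.16 instead of 1.22 for Myh6, and the median over the 10 genes was 0.28 instead of 0.32. The gonad transcription factor genes Nr5a1, Wt1 and Gata4 were above the array median on all 31 arrays, with lowest signals of 1104, 1635 and 1965.

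The promoters of the 4 genes with the largest differences between XX DKO and XX control are shown because these genes had arrays that did not overlap in any XX comparison with and without Ctnnb1. They are RefSeq windows of the GRCm38.p6 build, from 250 bases before to 50 after an annotated start. Of the 10 genes 7 had 1 window, while Myh7, Tnni1 and Tnnt2 had 2 each, of which the one nearest the gene's annotated 5′ end was used. Written 5′ to 3′ along the gene's strand, they lie at chr1:66945007-66945306 (minus strand) for Myl1, chr14:31208062-31208361 (plus strand) for Tnnc1, chr1:135836084-135836383 (plus strand) for Tnnt2 and chr14:54966558-54966857 (minus strand) for Myh6. The Myl1 and Myh6 windows belong to starts 2876 and 1410 bases inside the gene's annotated 5′ end. Capitals mark matches, on either strand, to the E-box (CANNTG), the MCAT element bound by TEAD factors (CATTCC) and the TATA box (TATAAA).
Myl1: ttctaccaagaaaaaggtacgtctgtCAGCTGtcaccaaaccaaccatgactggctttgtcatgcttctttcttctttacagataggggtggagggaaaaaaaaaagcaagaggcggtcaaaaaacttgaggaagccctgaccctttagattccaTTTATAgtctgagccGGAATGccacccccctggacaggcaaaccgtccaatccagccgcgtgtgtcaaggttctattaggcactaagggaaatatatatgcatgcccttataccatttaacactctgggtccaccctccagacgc
Tnnc1: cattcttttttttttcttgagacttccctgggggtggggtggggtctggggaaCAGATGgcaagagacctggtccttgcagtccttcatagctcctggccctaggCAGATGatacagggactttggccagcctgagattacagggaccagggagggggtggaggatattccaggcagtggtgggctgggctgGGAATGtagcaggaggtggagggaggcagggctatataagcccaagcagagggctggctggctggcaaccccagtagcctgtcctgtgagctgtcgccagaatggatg
Tnnt2: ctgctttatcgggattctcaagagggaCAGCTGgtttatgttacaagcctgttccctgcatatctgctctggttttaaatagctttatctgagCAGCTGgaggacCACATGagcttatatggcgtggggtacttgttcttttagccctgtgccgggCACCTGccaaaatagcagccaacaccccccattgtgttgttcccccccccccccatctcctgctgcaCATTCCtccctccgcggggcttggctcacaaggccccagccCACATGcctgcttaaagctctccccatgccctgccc
Myh6: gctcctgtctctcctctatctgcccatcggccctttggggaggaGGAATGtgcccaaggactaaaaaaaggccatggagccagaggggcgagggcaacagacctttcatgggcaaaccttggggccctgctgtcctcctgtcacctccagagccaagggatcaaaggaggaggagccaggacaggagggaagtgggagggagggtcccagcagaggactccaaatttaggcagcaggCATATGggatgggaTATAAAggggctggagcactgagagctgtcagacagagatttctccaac
Each of these 4 windows holds 1 MCAT match, starting at position -80 in Myl1, -58 in Tnnc1, -27 in Tnnt2 and -206 in Myh6 from the annotated start. Over all 10 genes, 5 windows held an MCAT match, with Myh7 as the other one, compared with 14.7% of 32851 mouse promoter windows of the same length. An E-box stood in 10 of 10 windows and in 72.3% of all windows, and the sequence TATAAA in 5 of 10 and in 13.6%. Those TATAAA matches start at position -29 in Myh3, -95 in Myl1, -96 in Myh8, 1 in Myh6 and 33 in Actc1. Whether any of them works as a TATA box was not tested. The TCF/LEF sequence CTTTGAT, through which beta-catenin acts, was found in 1 window, that of Myh6 at position -91 (printed in lower case), and in 3.73% of all windows. MEF2 and CArG motifs, searched by their consensus, were found in 1 window each, Myh8 and Actc1, and in 3.19% and 1.63% of all windows, and the Myh8 MEF2 match overlapped a TATA match. The GATA sequence AGATAA was found in the Tnnt2 window and in 11.2% of all windows. The SOX sequence AACAAT was found in the Myh7 window and in 10.7%. Of the 10 windows 0 held the NR5A1 sequence AAGGTCA, against 4.72%. The genes lie on several chromosomes. By the RefSeq table, Myh6 and Myh7 are next to each other on chromosome 14, Myh8 lies between Myh4 and Myh13 on chromosome 11, and Myh3 lies beside Myh2 there.

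The label of genes raised by Ctnnb1 loss held for some of the 10 and not for others. Myl1, Tnnc1, Tnnt2 and Myh6 were higher in Ctnnb1-deficient XX gonads and in XY DKO gonads, with arrays that did not overlap those of the matching groups with Ctnnb1. Myh7 was higher by less, Myh8 was higher in XY DKO, and Myh3, Actc1, Mylpf and Tnni1 had overlapping arrays or lower values. In XY gonads that lacked Ctnnb1 but kept Sox9, no member passed the threshold of an adjusted p under 0.05. There only 1 of 11777 genes was called higher (0.00849%). All 10 differences from XY control were above 0, from 0.01 log2 units for Tnnt2 to 1.16 for Myl1. Such signals come from whole gonads, in which more cells of a type and more RNA per cell cannot be told apart.

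**Figure D1:**
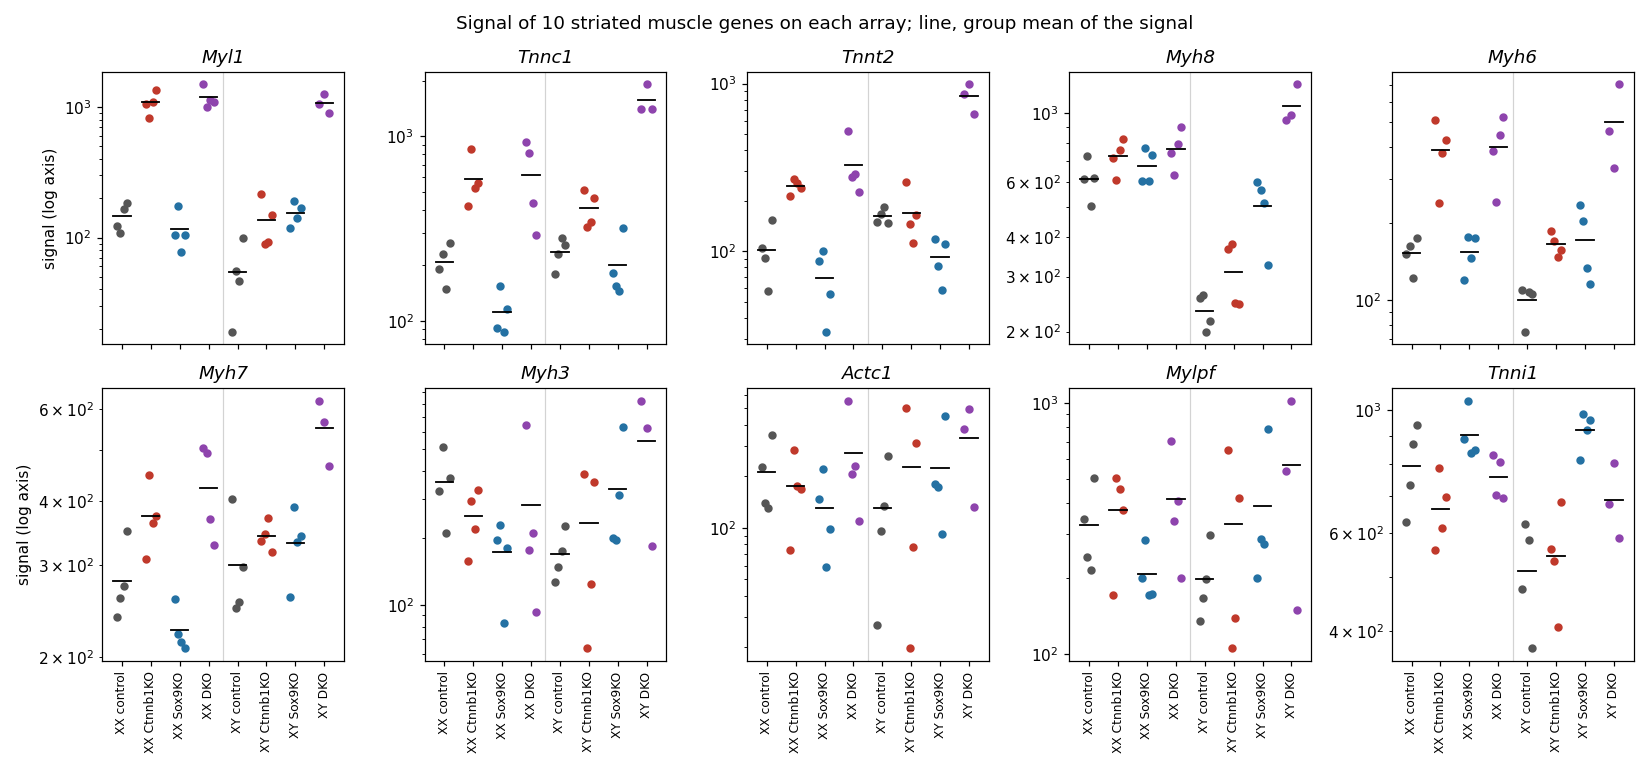
Signal of the 10 genes (log axis) on each of 31 arrays by group, XX groups on the left and XY groups on the right of the gray line; points are arrays and bars are group means. Myl1 means lie between 1080 and 1190 in XX Ctnnb1KO, XX DKO and XY DKO and between 54.7 and 155 in the other 5 groups.

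Among the light chains, Myl1, the essential light chain of fast skeletal myosin, showed the widest contrast. Its signal was 123, 109, 165 and 184 on the XX control arrays and 1063, 834, 1101 and 1354 on those of XX Ctnnb1KO, a difference of 2.78 ± 0.27 log2 units (SE, 4 against 4). With Sox9 also absent it was 1501, 1012, 1142 and 1104 in XX DKO, against 104, 176, 77.8 and 105 in XX Sox9KO, a difference of 3.23 ± 0.27. Every Ctnnb1-deficient XX array lay at least at 834, and every XX array with Ctnnb1 at or below 184. The XY groups gave 18.9, 55.4, 46.3 and 98.4 in control, 216, 89.9, 91.7 and 149 in Ctnnb1KO, 118, 190.1, 142 and 168 in Sox9KO and 1067, 1273 and 899 in DKO. XY DKO thus reached the XX DKO range, 2.69 ± 0.29 above XY Sox9KO (3 against 4) and 4.06 ± 0.29 above XY control. XY Ctnnb1KO lay 1.16 ± 0.27 above XY control, with overlapping arrays. Ordered by mean, XX DKO (1189.9), XX Ctnnb1KO (1088) and XY DKO (1079.6) overlapped with their neighbours. XY Sox9KO, the fourth, lay far below at 155 ± 31.3 (SD, n = 4), and its array range and those of XX control, XY Ctnnb1KO, XX Sox9KO and XY control each overlapped the next in order.

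Mylpf, the regulatory light chain of fast skeletal myosin, behaved differently. Its signal was 345, 245, 217 and 504 in XX control, 171, 505, 452 and 374 in XX Ctnnb1KO, 201, 286, 172 and 174 in XX Sox9KO and 709, 339, 406 and 201 in XX DKO. In XY gonads it was 135, 167, 198 and 299 in control, 652, 105, 139 and 417 in Ctnnb1KO, 201, 288, 275 and 785 in Sox9KO and 536, 1020.4 and 149.5 in DKO. The 3 XY DKO arrays alone ran from 149.5 to 1020.4, and every neighbouring pair of groups in the order of means overlapped. The difference was 0.16 ± 0.50 log2 units for XX Ctnnb1KO against XX control, 0.83 ± 0.50 for XX DKO against XX Sox9KO, 0.39 ± 0.50 for XY Ctnnb1KO against XY control and 0.37 ± 0.54 for XY DKO against XY Sox9KO.

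Of the 4 heavy chains, Myh6, which encodes the alpha heavy chain of the heart, differed most in XX gonads. Its signal was 152, 162, 122 and 175 in XX control and 510.4, 239.6, 379 and 427 in XX Ctnnb1KO, 1.22 ± 0.23 log2 units higher. XX DKO arrays read 386, 243, 447 and 523, against 120.2, 176, 146 and 176 in XX Sox9KO, a difference of 1.25 ± 0.23. The lowest Ctnnb1-deficient XX array exceeded the highest XX array with Ctnnb1. XY control arrays read 109.8, 75.0, 108 and 106, XY Ctnnb1KO 187, 171, 147 and 157, XY Sox9KO 237, 204, 133 and 115, and XY DKO 461, 332 and 705. XY Ctnnb1KO arrays all lay above those of XY control, by 0.66 ± 0.23, and XY DKO above XY Sox9KO by 1.44 ± 0.25. The means of XY DKO, XX DKO and XX Ctnnb1KO (499, 399.5 and 389) overlapped in their arrays, and a gap separated them from XY Sox9KO at 172 ± 57.6.

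Further probe sets bear on Myh6 because cardiac heavy chains are close paralogs and probes can be shared. A weaker Myh6 probe set averaged 9.74 ± 5.49 in XX control and 92.8 ± 40.0 in XX Ctnnb1KO, 9.18 ± 4.18 in XX Sox9KO and 112 ± 61.7 in XX DKO (SD, n = 4 each). Among XY groups its mean was 16.8 in control, 19.0 in Ctnnb1KO, 9.11 in Sox9KO, and 128 ± 66.5 (SD, n = 3) with both genes deleted. It thus separated the same 3 groups, without the difference between XY Ctnnb1KO and XY control. Of the probe sets assigned to both Myh7 and Myh6, which name no single gene, 1 averaged 11.1 in XX control, 81.5 in XX Ctnnb1KO, 81.7 in XX DKO and 80.2 in XY DKO, and the other 181, 352, 371 and 380.3.

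Myh7, the beta heavy chain of heart and slow skeletal muscle, was measured on every array above the median. Its signal was 239, 259, 274 and 350.3 in XX control, 308, 447, 362 and 374 in XX Ctnnb1KO, 258, 221, 214 and 208 in XX Sox9KO and 505, 494, 368 and 328 in XX DKO. The XX DKO arrays lay above all XX Sox9KO arrays, by 0.85 ± 0.16 log2 units, while XX Ctnnb1KO overlapped XX control with a difference of 0.39 ± 0.16. XY arrays read 403, 248, 255 and 298 in control, 334, 344, 370.0 and 319 in Ctnnb1KO, 260.4, 389, 333 and 341 in Sox9KO and 623, 567 and 466 in DKO. XY DKO exceeded XY Sox9KO on every array, by 0.71 ± 0.17, which is a smaller difference than that of Myh6. Its group means ran from 225 in XX Sox9KO to 552 in XY DKO, and each overlapped the next.

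Myh8, the perinatal heavy chain, was lower in XY than in XX gonads with Sox9 present and highest in XY DKO. XX arrays read 614, 727, 505 and 617 in control, 717, 609, 760.4 and 826 in Ctnnb1KO, 606, 770.1, 604 and 735 in Sox9KO and 746, 632, 793 and 904 in DKO. Those 4 groups overlapped, and the difference of XX Ctnnb1KO from XX control was 0.24 ± 0.17 log2 units. XY arrays read 256, 261, 199.8 and 217 in control, 367, 382, 247 and 246 in Ctnnb1KO, 601, 566, 515 and 328 in Sox9KO and 946, 985 and 1235 in DKO. XY DKO was the highest group of all 8, with no overlap with the next (XX DKO, mean 769), and stood 1.07 ± 0.18 above XY Sox9KO and 2.10 ± 0.18 above XY control. XY Ctnnb1KO lay 0.37 ± 0.17 above XY control, with overlapping arrays.

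Myh3, the embryonic heavy chain, was not higher in XX Ctnnb1KO. Its signal was 324, 513, 211 and 371 in XX control and 158, 294, 219.9 and 328 in XX Ctnnb1KO, a difference of -0.46 ± 0.50 log2 units, and 195, 229, 83.0 and 181 in XX Sox9KO and 644, 176, 211 and 92.7 in XX DKO. In XY gonads it was 127, 149, 174 and 226 in control, 387, 63.9, 124 and 358 in Ctnnb1KO, 199, 195, 313 and 626 in Sox9KO and 825, 620.5 and 184 in DKO. Each group overlapped its neighbours, and 1 XX DKO array and 2 XY DKO arrays stood above 600 while the others of those groups lay at 211 or below.

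Of the troponins, Tnnc1, which encodes the calcium-binding subunit of slow skeletal and cardiac muscle, was higher wherever Ctnnb1 was absent. XX arrays read 192, 230.5, 148 and 263 in control and 421, 855, 524 and 562 in Ctnnb1KO, 1.42 ± 0.28 log2 units higher. XX Sox9KO arrays read 91.0, 155, 87.2 and 116, and XX DKO arrays 929.9, 814, 435 and 291, 2.19 ± 0.28 higher. XX DKO varied by a factor of over 3 between its arrays, yet its lowest array exceeded the highest of XX control and XX Sox9KO. XY arrays read 179.6, 229.7, 283 and 258 in control, 515, 324, 346 and 461 in Ctnnb1KO, 182, 154, 146 and 321 in Sox9KO and 1412, 1920.4 and 1409 in DKO. All XY Ctnnb1KO arrays lay above all XY control arrays, by 0.75 ± 0.28, and XY DKO above XY Sox9KO by 2.93 ± 0.30. XY DKO, at a mean of 1580.5, overlapped no other group. XX DKO (617), XX Ctnnb1KO (591) and XY Ctnnb1KO (411) each overlapped the next in order, and a gap separated XY Ctnnb1KO from XY control (238).

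Tnnt2, the troponin T of the heart, which anchors the complex to tropomyosin, gave 105, 90.6, 57.8 and 153 in XX control and 214, 271, 254 and 238 in XX Ctnnb1KO, 1.21 ± 0.27 log2 units higher. XX Sox9KO arrays read 87.2, 99.8, 33.1 and 55.5, and XX DKO arrays 523, 276, 289 and 226, 2.03 ± 0.27 higher. Ctnnb1-deficient XX arrays lay above all other XX arrays. XY control read 149.5, 168, 183 and 147 and XY Ctnnb1KO 259, 145, 112 and 163, which overlapped fully and differed by 0.01 ± 0.27. XY Sox9KO read 118, 81.4, 58.8 and 110.1 and XY DKO 865, 990.2 and 657, 3.00 ± 0.29 higher, the largest such difference of the 10 genes in that comparison. XY DKO overlapped no other group, and the 7 groups below it each overlapped the next. A second Tnnt2 probe set, without the suffix that marks possible binding to other transcripts, averaged 90.4 ± 41.0 in XX control, 278 ± 33.5 in XX Ctnnb1KO, 57.5 ± 16.4 in XX Sox9KO and 324 ± 112 in XX DKO (SD, n = 4 each). With the same probe set XY DKO gave 817 ± 117 (n = 3), against 73.0 ± 21.4 (n = 4) where Sox9 alone was absent. The third stayed at or below 42.3 on every array.

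Tnni1, the inhibitory subunit of slow skeletal muscle, was the exception among the troponins. Its signal was 628, 735, 871 and 941 in XX control, 560.2, 788, 615 and 699 in XX Ctnnb1KO, 887, 1041, 839 and 849.6 in XX Sox9KO and 829.8, 705, 806 and 695 in XX DKO. The XX DKO arrays all lay below those of XX Sox9KO, by -0.25 ± 0.15 log2 units. XY arrays read 476, 625, 585 and 373 in control, 563, 536, 407 and 683 in Ctnnb1KO, 814, 986, 921 and 960.0 in Sox9KO and 677, 805 and 589 in DKO. XY DKO again lay below XY Sox9KO on every array, by -0.41 ± 0.16, and neither difference was called. Both Sox9KO groups had the highest means, and all neighbouring groups overlapped.

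Actc1, the alpha actin of the heart and of fetal skeletal muscle, spread more within groups than any other of the 10, with an SE of 0.64 log2 units for a difference of 4 against 4 arrays. XX arrays read 228, 139, 130.4 and 348 in control, 74.6, 283, 176 and 169 in Ctnnb1KO, 147, 221, 58.8 and 98.1 in Sox9KO and 552, 207, 231 and 109 in DKO. XY arrays read 27.0, 96.1, 135 and 263 in control, 501, 19.8, 76.9 and 312 in Ctnnb1KO, 179.9, 174, 91.7 and 448 in Sox9KO and 379.7, 494 and 133 in DKO. No pair of neighbouring groups was separated. The difference was -0.26 for XX Ctnnb1KO against XX control, 0.89 for XX DKO against XX Sox9KO and 0.58 ± 0.69 for XY DKO against XY Sox9KO.

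**Figure D2:**
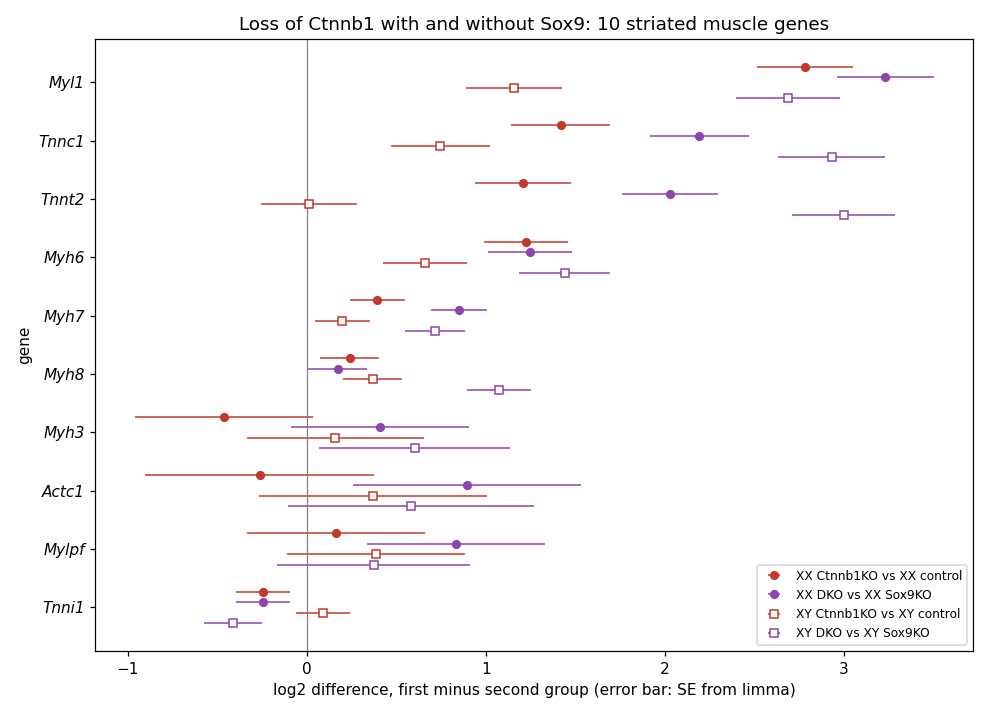
Log2 difference of the 10 genes (x axis, with SE from limma) between groups without and with Ctnnb1, in XX (filled circles) and XY gonads (open squares), with Sox9 intact (red) or absent (purple). Myl1, Tnnc1, Tnnt2 and Myh6 lie to the right in both XX comparisons and in XY DKO, and Tnni1 lies left of 0 in XX Ctnnb1KO and both DKO comparisons.

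Counted over the 10 genes, 4 were called higher and 0 lower in XX Ctnnb1KO against XX control, where 4.81% of the 11777 genes tested were called higher. In XX DKO against XX Sox9KO 5 were called higher and 0 lower, against 7.36% of all genes, and in XX DKO against XX control 5 and 0, against 7.29%. In XY DKO 6 were called higher and 0 lower against XY Sox9KO, where 11.1% of genes were, and 6 and 0 against XY control, with 9.62%. In XY Ctnnb1KO against XY control 0 of 10 were called, where limma called 1 gene of 11777 higher (0.00849%) and 473 had an unadjusted p under 0.05 in either direction. All genes were called lower in 5.32%, 6.16%, 5.61%, 10.8%, 7.61% and 0.0594% in the same order of comparisons. Arrays that did not overlap, with the group lacking Ctnnb1 higher, were seen for 4 of the 10 genes in XX Ctnnb1KO against XX control (6.22% of all genes), 5 in XX DKO against XX Sox9KO (8.66%) and 4 in XX DKO against XX control (8.60%). In XY gonads they were seen for 6 of the 10 in DKO against Sox9KO (12.9%), 6 in DKO against control (14.5%) and 2 in Ctnnb1KO against control (1.94%). Since these contrasts chose the genes, the counts describe the choice. The comparisons against XX control share its 4 arrays, as those against XY control share theirs.

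The median of the 10 differences was 0.32 log2 units in XX Ctnnb1KO against XX control, beside 0.00 for all genes tested, and ran from -0.46 for Myh3 to 2.78 for Myl1. It was 0.87 in XX DKO against XX Sox9KO, 0.37 in XY Ctnnb1KO against XY control and 0.89 in XY DKO against XY Sox9KO, with 0.01, 0.01 and -0.02 for all genes. The 10 genes therefore did not move as 1 block.

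Contrasts other than Ctnnb1 loss were tested with limma, with p-values adjusted over all 11777 genes by the Benjamini-Hochberg method. They reuse arrays on which the genes were chosen, so their p-values are not independent of that choice. Each array was a separate pair of gonads, but litters are not given, so the spread between arrays is the only error measured.

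In control gonads, 3 of the 10 genes were lower in XY than in XX and 0 higher, where 19.8% of all genes were lower and 18.0% higher. Myh8 was lower by -1.34 ± 0.17 log2 units (limma adjusted p = 1.06e-07), Myl1 by -1.29 ± 0.27 (adjusted p = 3.15e-04) and Tnni1 by -0.62 ± 0.15 (adjusted p = 0.00147), each with no overlap between 4 and 4 arrays. Myh6 arrays did not overlap either, at -0.55 ± 0.23, with a limma adjusted p of 0.0647. Tnnt2 lay the other way, 0.66 ± 0.27 higher in XY (adjusted p = 0.0532). With only the 8 arrays of the comparison in the fit, 6 of the 10 were called in place of 3. The share of all genes called in that smaller fit is not given here.

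Loss of Sox9 alone left the 10 genes without a call in XX gonads. There limma called 0 of the 10 and 0 of 11777 genes (0%), and 537 genes had an unadjusted p under 0.05. The lowest p of the 10 was that of Tnnc1, which was lower by -0.81 ± 0.28 log2 units, with an unadjusted limma p of 0.00656 and an adjusted p of 0.986.

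In XY gonads the same loss changed 5 of the 10. Myl1 rose by 1.38 ± 0.27 log2 units relative to XY control (limma adjusted p = 1.45e-04), Myh8 by 1.03 ± 0.17 (adjusted p = 8.95e-06), Tnni1 by 0.84 ± 0.15 (adjusted p = 4.35e-05) and Myh6 by 0.66 ± 0.23 (adjusted p = 0.0246). Tnnt2 fell by 0.75 (SE 0.27, limma adjusted p = 0.0264). These are 4 higher, against 22.7% of all genes, and 5 in either direction, against 38.7%. Each difference ran towards the XX control level, and past its log2 mean for all but Myh8. The comparison of control gonads uses the same XY control arrays, and the share of all genes running this way was not counted. The Myh6 and Tnnt2 calls were not robust: the Myh6 difference was 0.14 with a limma adjusted p of 0.702 when both Myh6 probe sets were averaged, and both calls were lost when XY control replicate 2 was left out (adjusted p = 0.0872 and 0.0526).

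The Sox9 response was tested for a difference between XY and XX gonads. It was more positive in XY by 1.69 ± 0.38 log2 units for Myl1 (limma adjusted p = 0.00130), 0.89 ± 0.23 for Myh8 (adjusted p = 0.00535) and 0.65 ± 0.21 for Tnni1 (adjusted p = 0.0260). The Tnni1 call was lost without XX control replicate 3, XX control replicate 4 or XY control replicate 4 (limma adjusted p = 0.0576, 0.0657 and 0.0780). These 3 were called higher and 0 lower, against 12.7% and 10.7% of all genes. XY and XX gonads that both lacked Sox9 gave 0 calls among the 10, where limma called 13 of 11777 genes (0.110%) and 1615 had an unadjusted p under 0.05. The 95% interval of the Myl1 difference between them ran from -0.15 to 0.96 and that of Myh8 from -0.79 to -0.11, with all 4 XY arrays below the 4 XX arrays for Myh8 but an adjusted p of 0.218.

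Removal of Sox9 from gonads that already lacked Ctnnb1 was read within XX and within XY, and the difference between both effects was not tested. Between XX DKO and XX Ctnnb1KO, limma called 0 of the 10 and 0 of 11777 genes (0%), with 965 at an unadjusted p under 0.05. The Myl1 difference there was 0.13 ± 0.27 log2 units, with an interval from -0.42 to 0.68. Between XY DKO and XY Ctnnb1KO, 6 of the 10 rose and 0 fell, against 7.66% of all genes called higher and 6.33% lower. XY DKO was also the high group in comparisons that chose the genes, so this count and its p-values are not independent of that choice. Myl1 was higher by 2.91 ± 0.29 (3 against 4 arrays, limma adjusted p = 8.34e-09), Tnnt2 by 2.24 ± 0.29 (adjusted p = 9.01e-07), Tnnc1 by 1.91 ± 0.30 (adjusted p = 2.05e-05), Myh8 by 1.73 ± 0.18 (adjusted p = 1.31e-08), Myh6 by 1.45 ± 0.25 (adjusted p = 1.04e-04) and Myh7 by 0.66 ± 0.17 (adjusted p = 0.00653). All 6 had arrays that did not overlap, and the Myh7 call was lost without XY DKO replicate 2 (adjusted p = 0.0533).

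Without Ctnnb1 and with Sox9, XY gonads lay below XX gonads for 3 of the 10 genes and above for 0, where 16.5% of all genes were called lower. Myl1 differed by -2.91 ± 0.27 log2 units (limma adjusted p = 5.51e-10), Myh8 by -1.21 ± 0.17 (adjusted p = 9.59e-07) and Myh6 by -1.11 ± 0.23 (adjusted p = 4.27e-04). These 3 were called again without XX Ctnnb1KO replicate 4, at -2.80, -1.15 and -1.06. With both genes absent, 2 of the 10 were higher in XY than in XX and 0 lower, against 3.45% of genes called higher and 1.77% lower, namely Tnnc1 by 1.46 ± 0.30 (limma adjusted p = 0.00315) and Tnnt2 by 1.36 ± 0.29 (adjusted p = 0.00406). For Myl1 that difference was -0.14 ± 0.29, with an interval from -0.73 to 0.46. The groups compared here all lacked Ctnnb1 and entered the comparisons that chose the genes, so these counts and p-values are not independent of that choice.

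Whether the 10 genes were high on the same arrays was examined after the group mean of each gene had been removed. Over 31 arrays the 45 pairs of genes had a median Pearson r of 0.34, with a range from -0.43 to 0.90, and 13 pairs were above 0.6 and 15 below 0. Arrays share their amplification and scaling, so these values describe the arrays and carry no test. Actc1, Mylpf and Myh3 formed the tightest group, with r of 0.90 for Actc1 and Mylpf, 0.85 for Myh3 and Mylpf and 0.83 for Myh3 and Actc1. Tnnc1 and Tnnt2 varied with them (r of 0.73 and 0.71 to Actc1), as did Myl1 (0.72 to Actc1). Myh6 and Myh8 varied with each other (0.67). Both had negative r to Mylpf (-0.41 and -0.37), Tnnc1 (-0.41 and -0.35), Myh3, Actc1, Myh7 and Tnni1, and values near 0 to Myl1 (0.05 and -0.01) and Tnnt2 (0.00 and 0.08). Myh6 and Myh7, although neighbours on the chromosome, had the lowest r of all pairs, -0.43.

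**Figure D3:**
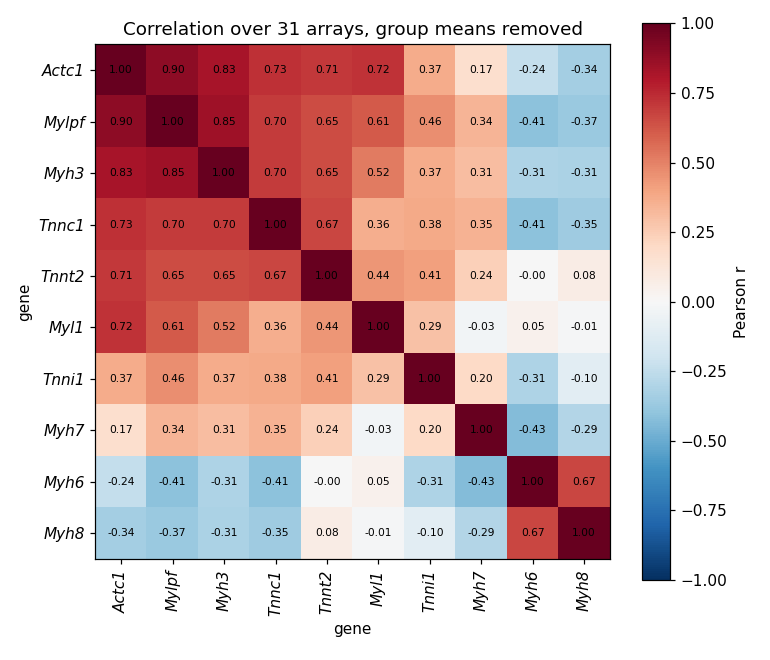
Pearson r of each pair of the 10 genes over 31 arrays after removing group means; both axes list the genes and colour runs from -1 (blue) to 1 (red). A red block joins Actc1, Mylpf, Myh3, Tnnc1, Tnnt2 and Myl1, and the rows of Myh6 and Myh8 are blue against Actc1, Mylpf, Myh3 and Tnnc1 and pale against Tnnt2 and Myl1.

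Some arrays were high or low for most of the 10 genes, although leaving out any 1 array kept the median r of the pairs between 0.26 and 0.37. XX Sox9KO replicate 2 had the highest signal of its group for 9 of the 10 genes, XX control replicate 4 and XX DKO replicate 1 for 8 each, and XY Ctnnb1KO replicate 1 for 7. XY DKO replicate 4 and XX Sox9KO replicate 3 were the lowest of their groups for 8 each. On XX DKO replicate 1 the 10 genes averaged 0.57 log2 units above their group means, and on XX DKO replicate 4, the lowest of that group, -0.42. Over all 31 arrays this average ran from -0.51 on XY Ctnnb1KO replicate 2 to 0.61 on XY Ctnnb1KO replicate 1. Yet XX DKO replicate 4 was the highest of its group for Myh6 and Myh8, as XY DKO replicate 4 was.

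**Figure D4:**
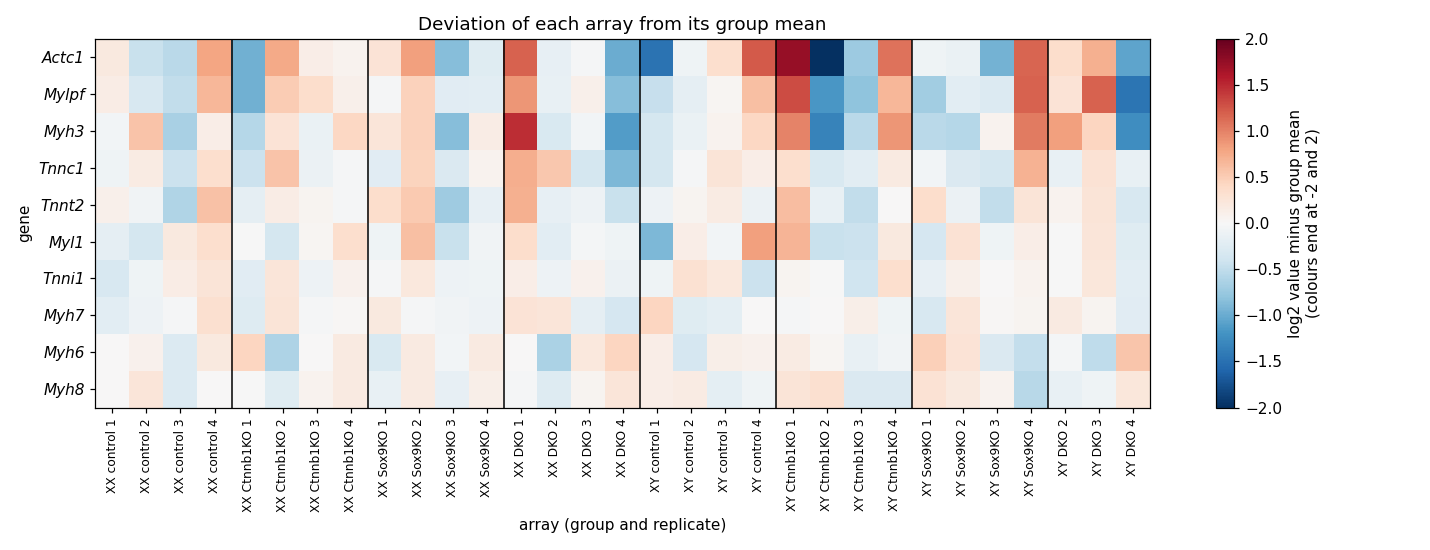
Log2 value minus group mean of the 10 genes (rows) on 31 arrays (columns, by group and replicate); red is above and blue below the group mean, and black lines part the groups. XX DKO replicate 1 and XY Ctnnb1KO replicate 1 are red for most rows, and the rows of Myh6 and Myh8 run against the others on several arrays.

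Gene lists of some other tissues varied along with the mean deviation of the 10 genes, and others did not. Over the same 31 arrays its r was 0.59 with the summed signal of 4 liver genes (Alb, Afp, Apoa1 and Ttr), 0.51 with 5 erythroid genes, 0.53 with 9 smooth muscle genes, 0.42 with 5 cartilage genes, 0.42 with 8 macrophage genes and -0.46 with the array's median signal. It was 0.34 with neuron and Schwann cell genes, 0.10 with endothelial, -0.09 with adrenal cortex, -0.09 with mesonephric and -0.10 with gonad marker genes. For the muscle lists it was 0.61 with other sarcomere genes, 0.49 with muscle energy metabolism and 0.41 with skeletal muscle regulators. It was 0.17 with excitation-contraction coupling, -0.06 with cardiac and -0.32 with neuromuscular junction genes. Ratios of 3′ to 5′ signal gave 0.18 for Gapdh and 0.16 for actin. In XY Ctnnb1KO, liver sums ran from 342 on replicate 2, where the 10 genes averaged -0.51, to 19586 on replicate 4, where they averaged 0.29. In contrast XX control replicate 1 had a liver sum of 12091 and an average of -0.04. Summed liver signal was 963 to 12091 in XX control, 1192 to 7951 in XX Ctnnb1KO, 387 to 1975 in XX Sox9KO and 631 to 4176 in XX DKO, and limma called none of the 4 liver genes in any comparison with and without Ctnnb1. The part of such tissue in the spread of the 10 genes was not tested.

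The genes most like the mean of the 10 across arrays were Tceal7 (r of 0.84), Myl4, an embryonic and atrial essential light chain (0.82), Tnnc2, the fast skeletal troponin C (0.79), Sec24c, a coat protein of vesicles (0.72), Urod, an enzyme of haem synthesis (0.72), and 2310039H08Rik (0.71). Tnnc2 signals were low, with group means of 84.0 to 207 and a lowest array at 16.1. Closest to Myl1 alone were Tst (0.70), Tes3-ps (0.70), Tmem11 (0.67) and Wwtr1 (0.67), which encodes a transcriptional coactivator of TEAD factors. All these genes head a ranking of every gene that passed the filter, so high r values are partly due to that choice. No link of Wwtr1 to Myl1 was tested. Wwtr1 signal was 1409.8 ± 142 in XX Ctnnb1KO and 2171 ± 273 in XX control (SD, n = 4 each), a log2 difference of -0.61 (limma adjusted p = 6.52e-05). It averaged 1541 in XX DKO, 1667 in XY DKO and 1482 in XY control, the group with the lowest Myl1. Below the filter, Acta1, the actin of adult skeletal muscle, had an r of 0.87 to the mean of the 10, and Myog, a skeletal muscle transcription factor, 0.80. Also below the filter, r was 0.74 for Mymx, 0.65 for Myom2, 0.615 for Myot and 0.60 for Myoz2. Among the sarcomere genes and muscle regulators listed, r ran down to -0.69 for the fast heavy chain Myh4, with -0.31 for Myod1, -0.30 for Neb (nebulin) and 0.02 for Myf5. Many of these signals were low, on any array at most 173 for Acta1, 96.0 for Myod1, 43.8 for Myh4, 28.0 for Myot and 21.2 for Myf5.

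A list of 43 other sarcomere genes, from which the 10 had been taken out, was then read in the same contrasts. The arrays held 42, of which 16 passed the filter and 20 were above the median on no array. In XX Ctnnb1KO against XX control 7 of 16 were called higher and 0 lower, where 4.81% and 5.32% of all genes were. These were led by Mybpc3, a cardiac myosin-binding protein, at 1.45 ± 0.23 log2 units (limma adjusted p = 3.76e-05). Actn2, the Z-disc alpha-actinin, was higher by 1.15 ± 0.35 (adjusted p = 0.0290), Cryab, a small heat shock protein of the Z-disc, by 1.02 ± 0.14 (adjusted p = 1.76e-06), Pdlim3 by 0.96 ± 0.25 (adjusted p = 0.0109), Myl7, the atrial regulatory light chain, by 0.80 ± 0.19 (adjusted p = 0.00410) and the cardiac troponin I gene Tnni3 by 0.68 ± 0.12 (adjusted p = 1.68e-04). The list's median was 0.23, with only the arrays of the comparison in the fit 4 were called higher, and without XX Ctnnb1KO replicate 4 there were 6. The shares of all genes called in those alternative fits are not given here. In XX DKO against XX Sox9KO 6 of 16 were called higher, in XY DKO against XY Sox9KO 10 of 16, and in XY Ctnnb1KO against XY control 0, with 0 lower in all 3. Of all genes, 7.36%, 11.1% and 0.00849% were called higher in the same order.

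Several of these genes differed from Myl1 and Myh8 in control gonads, though not from all of the 10. Mybpc3 had a signal of 509 ± 37.0 in XY and 94.4 ± 40.5 in XX control gonads (SD, 4 arrays each), a difference of 2.32 ± 0.23 log2 units (limma adjusted p = 1.88e-09). It averaged 282 ± 96.8 in XX Ctnnb1KO and 301 ± 71.5 in XX DKO, so it lay between both controls, whereas Myl1 was lower in XY control than in XX control. Pdlim3 (3.35 ± 0.25, limma adjusted p = 3.72e-12), Actn2 (2.32 ± 0.35, adjusted p = 2.87e-06) and Tnni3 (1.30 ± 0.12, adjusted p = 4.64e-10) were also higher in XY control. In XY Sox9KO against XY control, Pdlim3 differed by -3.42, Mybpc3 by -2.96, Actn2 by -1.83 and Tnni3 by -0.95 log2 units (limma adjusted p = 2.19e-12, 9.86e-12, 8.92e-05 and 2.06e-07), where Myl1 and Myh8 rose. Tnnt2, 1 of the 10, ran the same way as these genes. It differed by 0.66 in XY control against XX control and by -0.75 in XY Sox9KO against XY control (limma adjusted p = 0.0532 and 0.0264). Of the list, 8 were higher and 1 lower in XY control than in XX control, where 18.0% and 19.8% of all genes were. In XY Sox9KO against XY control 1 was higher and 6 lower, and these 7 of 16 stand beside 38.7% of all genes called in either direction. Cryab showed another order, with 721 ± 178 in XX control, 1453 ± 144 in XX Ctnnb1KO, 926 ± 106 in XY control and 2037 ± 127 in XY DKO (n = 3).

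**Figure D5:**
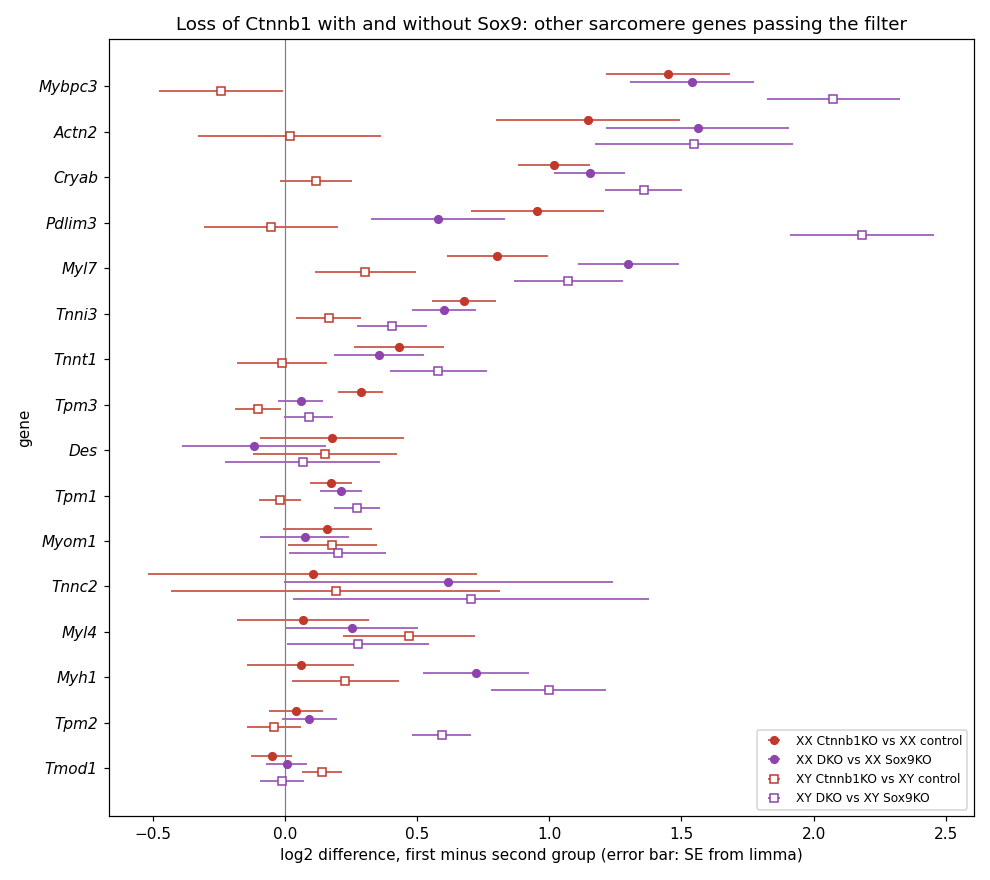
Log2 difference (x axis, with SE from limma) of the 16 other sarcomere genes that passed the filter, in the same comparisons and symbols as for the 10 genes. Mybpc3, Actn2, Cryab and Pdlim3 lie to the right in XX Ctnnb1KO, and the red open squares of XY Ctnnb1KO lie between -0.24 (Mybpc3) and 0.47 (Myl4).

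Fabp3, a fatty acid carrier of heart and muscle, rose by 2.04 ± 0.18 log2 units in XX Ctnnb1KO (limma adjusted p = 6.26e-10) and lay 2.04 ± 0.19 higher in XY DKO than in XY Sox9KO (adjusted p = 1.42e-09). It was the 1 gene of 10 measured for muscle energy metabolism that rose in XX Ctnnb1KO, and 0 fell. Its means were 542 in XX control, 2228 in XX Ctnnb1KO and 1284 in XY control. Of 9 measured genes of excitation-contraction coupling, 1 rose and 2 fell in XX Ctnnb1KO. Among all genes, 4.81% were called higher and 5.32% lower there. Casq2, the calcium store protein of heart muscle, rose by 0.91 ± 0.20 (limma adjusted p = 0.00156), and the calcium release channel genes Ryr1 and Ryr2 differed by -1.07 and -1.47 (adjusted p = 5.96e-04 and 2.83e-06). The acetylcholine receptor subunit gene Chrnb1 rose by 0.83 ± 0.17 (limma adjusted p = 5.52e-04), as 1 of 2 measured genes of the neuromuscular junction. The other 6 of the 8 junction genes on the arrays were above the median on no array and reached at most 48.6 (Chrne).

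Regulators that define skeletal muscle were low. Of 17 on the arrays, 11 did not pass the filter, and Myod1, Myf5, Myf6, Pax3 and Pax7, transcription factors of muscle precursors and myoblasts, reached at most 96.0, 21.2, 31.2, 41.7 and 47.3 on any array. Myog reached at most 156, and Ckm, the creatine kinase of mature muscle, 52.0. Of the 6 that passed, 2 rose in XX Ctnnb1KO, Eya1 by 1.21 ± 0.20 log2 units (limma adjusted p = 6.71e-05) and Mef2c by 0.46 ± 0.11 (adjusted p = 0.00396), and 0 fell. Among all genes, 4.81% were called higher and 5.32% lower there. Summed signal of the list was 3181 to 3590 in XX control and 3893 to 4500 in XX Ctnnb1KO. That sum includes Mef2a, Mef2c and Mef2d, above the median on all 31 arrays at 1254 to 2315, 454 to 1417 and 418 to 701. It therefore says little about the regulators that stayed low. Of 13 cardiac genes on the arrays 9 did not pass, and the heart transcription factor gene Nkx2-5 reached at most 46.7 and the natriuretic peptide gene Nppa 66.0. The gap junction gene Gja5 rose by 0.84 ± 0.17 (limma adjusted p = 9.18e-04) and Smpx differed by -0.98 (adjusted p = 7.35e-07) in XX Ctnnb1KO. Titin (Ttn) reached at most 113 and was above the median on no array.

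Genes of other gonadal cell types moved in the same comparisons. In XX Ctnnb1KO against XX control, 4.81% of all genes were called higher and 5.32% lower. Of 5 measured smooth muscle genes, 3 rose in XX Ctnnb1KO, namely Myh11 by 0.67 ± 0.12 log2 units, Acta2 by 0.59 ± 0.12 and Mylk by 0.33 ± 0.10 (limma adjusted p = 9.71e-05, 5.98e-04 and 0.0353), and 0 fell. Their summed signal was 7024 to 8018 in XX control, 9096 to 12461 in XX Ctnnb1KO and 15283 to 17221 in XY control, where Myl1 was lowest. Of 8 macrophage genes 5 rose and 0 fell in XX Ctnnb1KO, led by Tyrobp at 0.81 ± 0.18 (limma adjusted p = 0.00174), with sums of 2892 to 4737 in XX control and 4597 to 6937 in XX Ctnnb1KO. Macrophage sums were 5594 to 7138 in XX DKO and 6135 to 8315 in XY DKO, groups where Myl1 was also high. They were 3214 to 3635 in XX Sox9KO, 3315 to 4126 in XY control, 3620 to 5313 in XY Ctnnb1KO and 3620 to 4466 in XY Sox9KO. Of 3 measured adrenal cortex genes 1 rose and 0 fell, with sums of 124 to 186 and 184 to 426, and of 2 cartilage and 2 mesonephric genes 1 each rose and 1 each fell. Of 9 gonad markers Dhh rose and Foxl2 and Fst, which mark ovarian somatic cells, fell, Fst by the most at -3.73 ± 0.13. No gene was called among the 4 erythroid, 4 liver, 6 endothelial or 1 neuronal gene measured in XX Ctnnb1KO against XX control. Of 6 measured WNT target genes 5 fell, led by Lgr5 at -2.18 ± 0.16 and Tnfrsf19 at -2.17 ± 0.09 (limma adjusted p = 1.58e-11 and 2.93e-17), and 0 rose. The part of any of these cell types in the signal of the 10 genes was not tested.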

How the data were processed

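The labels describe 31 single-colour arrays, 1 per gonad pair; 40 ng of RNA was amplified and labelled with biotin. The authors deposited linear signal intensity per probe set, made with MAS5 per the submitters' processing notes; its version and settings: not given in the sources used here. On every array the trimmed mean is 500.0, so each was scaled to a common level and changes in total RNA are not seen. Precision is limited by the number of arrays, since an array gives no read depth.

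Groups came from titles and genotypes. Differences are on the log2(signal + 16) scale, where low signals change by less than their true fold. Genes above their array's median on at least 3 arrays entered 1 limma fit (version 3.58.1, R 4.3.3) of 8 group means with a trend and 23 residual degrees of freedom, and the Benjamini-Hochberg method was applied over the 11777 genes of each comparison. Calls have an adjusted p under 0.05. Among the 45101 probe sets, 34945 carry a single symbol, 932 carry several, 9160 carry no symbol, and 34741 were matched to RefSeq by Entrez identifier. The fit was tested on simulated data.

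The 10 genes and all lists were chosen with earlier results of these data known. Named genes were the 10, the 6 most like their mean and the 4 most like Myl1 across arrays, up to 6 genes of each list called in XX Ctnnb1KO or XX DKO against XX control by adjusted p, genes of a list at or near background, and Sox9, Xist and Eif2s3y. Acta1, Nr5a1, Wt1 and Gata4 were named after their values were seen. The values were recomputed with quantile-normalized signals, with pseudocounts of 1 and 64, without the filter, with the arrays of a comparison alone, with a replicate block, with the mean of a gene's probe sets and without each array in turn. Protein sequences were not used here.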

Additional observations from a re-analysis of the deposited data

Results flagged for a closer look

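Myh6 had 1 array far from the others of its group. Its signal was 75.0 on XY control replicate 2, against 106 to 109.8 on the other 3 arrays of that group. In all, 70 combinations of a gene and a group of 4 arrays were examined, and this was the 1 found. Chance alone flags about 1 in 20 combinations, so 1 in 70 is no more than chance gives.

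For 3 genes, the response to Sox9 loss differed between XY and XX gonads by the test of the difference itself. It was more positive in XY by 1.69 log2 units for Myl1 (limma adjusted p = 0.00130), by 0.89 for Myh8 (adjusted p = 0.00535) and by 0.65 for Tnni1 (adjusted p = 0.0260). The Tnni1 call was lost when XX control replicate 3, XX control replicate 4 or XY control replicate 4 was left out (limma adjusted p = 0.0576, 0.0657 and 0.0780). All 4 XY Sox9KO arrays were above all 4 XY control arrays for each of the 3 genes, and the XX Sox9KO and XX control arrays overlapped. In XY Sox9KO against XY control 22.7% of all genes were called higher, and the share with arrays apart is not given here.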

How the results depend on the processing

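Among the 10 genes, no called difference reversed its sign under any alternative run. Of the values for Ctnnb1 loss 868 stayed within the spread and 12 moved further, all in Myl1, Tnnt2 or Myh6, such as Myl1 in XY DKO against XY control at 4.48 and 3.30 with pseudocounts of 1 and 64. Of the values for single genes in comparisons other than Ctnnb1 loss, 1386 kept their side of the threshold, 13 lost and 11 gained a call. With only the arrays of a comparison in the fit, 6 of the 10 genes were called between control gonads in place of 3, 5 in place of 3 for the difference in Sox9 response, and 4 other sarcomere genes in place of 7 were called higher in XX Ctnnb1KO. For the alternative runs the share of all genes called is not given here, so a changed count may follow a changed share. Quantile normalization raised the median pair correlation from 0.34 to 0.38. Leaving out each array in turn gave 3 to 5 calls for XY Sox9KO against XY control and a median pair correlation of 0.26 to 0.37. The Tnni1 difference in Sox9 response lost its call without XX control replicate 3, XX control replicate 4 or XY control replicate 4 (limma adjusted p = 0.0576, 0.0657 and 0.0780). The Tnnt2 fall in XY Sox9KO was lost with quantile normalization (adjusted p = 0.0756). Where the cause of a change is not given by fewer arrays or probe sets in the fit, it was not tested. Replicate numbers did not pair the arrays: 25 of 105 same-numbered pairs correlated above 0.1, with a median of -0.01. With the replicate number as a block, 4 of the 10 genes were called between control gonads, Tnnt2 being the addition (adjusted p = 0.0376), and no other call among the 10 changed. Few arrays and low signals limit the precision, and Tnnt2, Myl1, Actc1 and Myh6 were below the median on 13 or more arrays.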
